A study of Mus musculus with 48 samples.

Results

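The genes of RNA polymerase II, of its general transcription factors (TFII) and of the Mediator complex were followed through RNA and ribosome footprints in a panel of ribosomal protein mutants. Members were chosen by symbol: Polr2a to Polr2m, every symbol that starts with Gtf2, with Taf and a digit or with Med and a digit, and Tbp. The polymerase I factors Taf1a to Taf1d and pseudogenes were left out. This gave 82 gene identifiers with 81 symbols among 55487 genes. One identifier that carries the symbol Taf9 in the deposited table is named Ak6, an adenylate kinase, in the gene-name table, and it is called Ak6 here. The members fall into RNA polymerase II (13 genes), TFIID (15), TFIIA, TFIIB, TFIIE, TFIIF and TFIIH (12), Mediator (30), the TFII-I family (3), the SAGA coactivator (2) and the FET protein gene Taf15, with 6 others that were placed in none of these, among them paralogs of TFIIA and TFIID subunits. In each assay 78 members had enough counts to be tested, among the others Ak6 and the antisense RNA Med9os, and Gtf2a1l, Taf7l, Taf7l2 and Taf9b did not.

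All libraries came from Ba/F3, an immortalised mouse line described as pro-B cells that grows in interleukin 3. Beside WT, the panel holds clones that lack 1 allele of Rpl5, Rpl11 or Rpl22 (written Rpl5+/-, Rpl11+/- and Rpl22+/-) and clones labelled as lacking Rpl22 altogether (Rpl22-/-). A further set carries single amino acid changes, R98S in Rpl10 and either P131S or H137Y in Rps15, which the genotype field of the labels gives on both alleles, although the titles of the P131S RNA libraries write the change once. The mutants were made with CRISPR-Cas9, and every genotype is represented by 3 clones, those of WT numbered 1, 2 and 3. The first 5 mutant genotypes concern proteins of the large ribosomal subunit and the last 2 a protein of the small subunit. Each clone gave an RNA-seq library of poly(A) RNA and a RIBO-seq library of ribosome-protected fragments from 1 divided lysate, after 1 min in 0.1 mg/ml cycloheximide. Every clone grew in 10% serum and 1 ng/ml interleukin 3. All clones come from a single line, and how far the WT clones passed through editing is not given in the sources used here. The Rps15 mutations are ones found in chronic lymphocytic leukaemia, and the comparison with WT asks how RNA and translation of the transcription machinery differ in cells that carry them.

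RNA polymerase II reads protein-coding genes. TFIID, made of the TATA-binding protein Tbp and its associated factors (Taf), recognises the core promoter, and TFIIA, TFIIB, TFIIE, TFIIF and TFIIH complete the preinitiation complex. Mediator, built of head, middle and tail modules around the scaffold subunit Med14 with a detachable kinase module, passes signals from activators to the polymerase. Polr2e, Polr2f, Polr2h, Polr2k and Polr2l are subunits shared with polymerases I and III.

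Library totals ran from 13029073 to 38258559 counts in RNA and from 15598994 to 72044439 in footprints. Levels are counts scaled to a common library size, written as CPM. In Rpl5+/- and Rpl11+/- RNA of the targeted gene was 1555 ± 28.9 and 1073 ± 71.3 CPM (SD, n = 3) against 2315 ± 29.3 and 1674 ± 10.9 in WT. Rpl22 footprints in the clones labelled Rpl22-/- were at 1544 (clone 30), 274 (clone 649) and 316.5 CPM (clone 776), against 1429 to 1596 in Rpl22+/-, so clone 30 stood at the heterozygous level. Rps15 RNA was 907 CPM in P131S clone 24 and 817 and 874 in H137Y clones 6 and 2, but 1825 to 1935 in the other 3 Rps15 clones and 1432 to 1454 in WT. Levels cannot check the point mutations. The receptor genes Il3ra, Csf2rb and Csf2rb2 were present in every library, but the pro-B markers Ebf1, Rag1, Rag2, Dntt, Blnk, Igll1 and Vpreb2 stayed at or near 0, and Pax5 and Vpreb1 reached at most 0.119 and 0.301 CPM. Of the B cell receptor chains, Cd79b was present at 3.34 to 9.91 CPM and Cd79a ran from 0 to 9.81. T cell markers summed to at most 0.348 CPM. Of 9 mast and myeloid markers, Gata2 (302.5 to 513 CPM) and Cpa3 (7.77 to 239 CPM), found in mast cells and progenitors, were present. Kit was at 0, and Fcer1a, Ms4a2, Elane and Ly6g reached at most 0.673, 0.193, 0.201 and 1.14 CPM. Mpo and Itgam had medians of 1.27 and 0.851 CPM. The sum of 3 receptor genes was 2234 to 2843 CPM in P131S and 1421 to 2511 in H137Y against 876 to 1039 in WT. That of 12 pro-B markers was 3.81 to 5.07 CPM in P131S, 7.01 to 8.49 in H137Y and 6.22 to 10.15 in WT. Sums of 3 erythroid markers were 122.9 to 328 CPM in H137Y, 58.3 to 85.7 in P131S and 92.6 to 114.9 in WT. Those of the 9 mast and myeloid markers, mostly Gata2, were 340.8 to 409.6 in H137Y, 434 to 551.5 in P131S and 443 to 475 in WT. Those of 3 stromal and endothelial markers, nearly all Pecam1, were 97.2 to 104.5 in P131S, 127.2 to 134.7 in H137Y and 126.3 to 140.4 in WT. The part of these levels in the results was not tested.

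Most RNA calls among the members came from the Rps15 genotypes, and in P131S most were upwards. In P131S 41 of 78 members were higher than in WT and 5 lower (edgeR quasi-likelihood test, adjusted p under 0.05), where 23.7% of the 12814 genes tested were higher and 23.4% lower. The median log2 change was 0.245 over the members and -0.014 over all genes tested. In H137Y 26 members were higher and 14 lower, beside 21% and 20% of all genes, with medians of 0.024 and 0.008. Of the 41 members higher in P131S, 21 were higher, 2 lower and 18 not called in H137Y, and both comparisons share the 3 WT clones. The direct test of P131S against H137Y called 30 members higher and 3 lower (12.6% of all genes in each direction), but only 5 of these 33 calls were reached when the fit held those 2 genotypes alone.

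**Figure D1:**
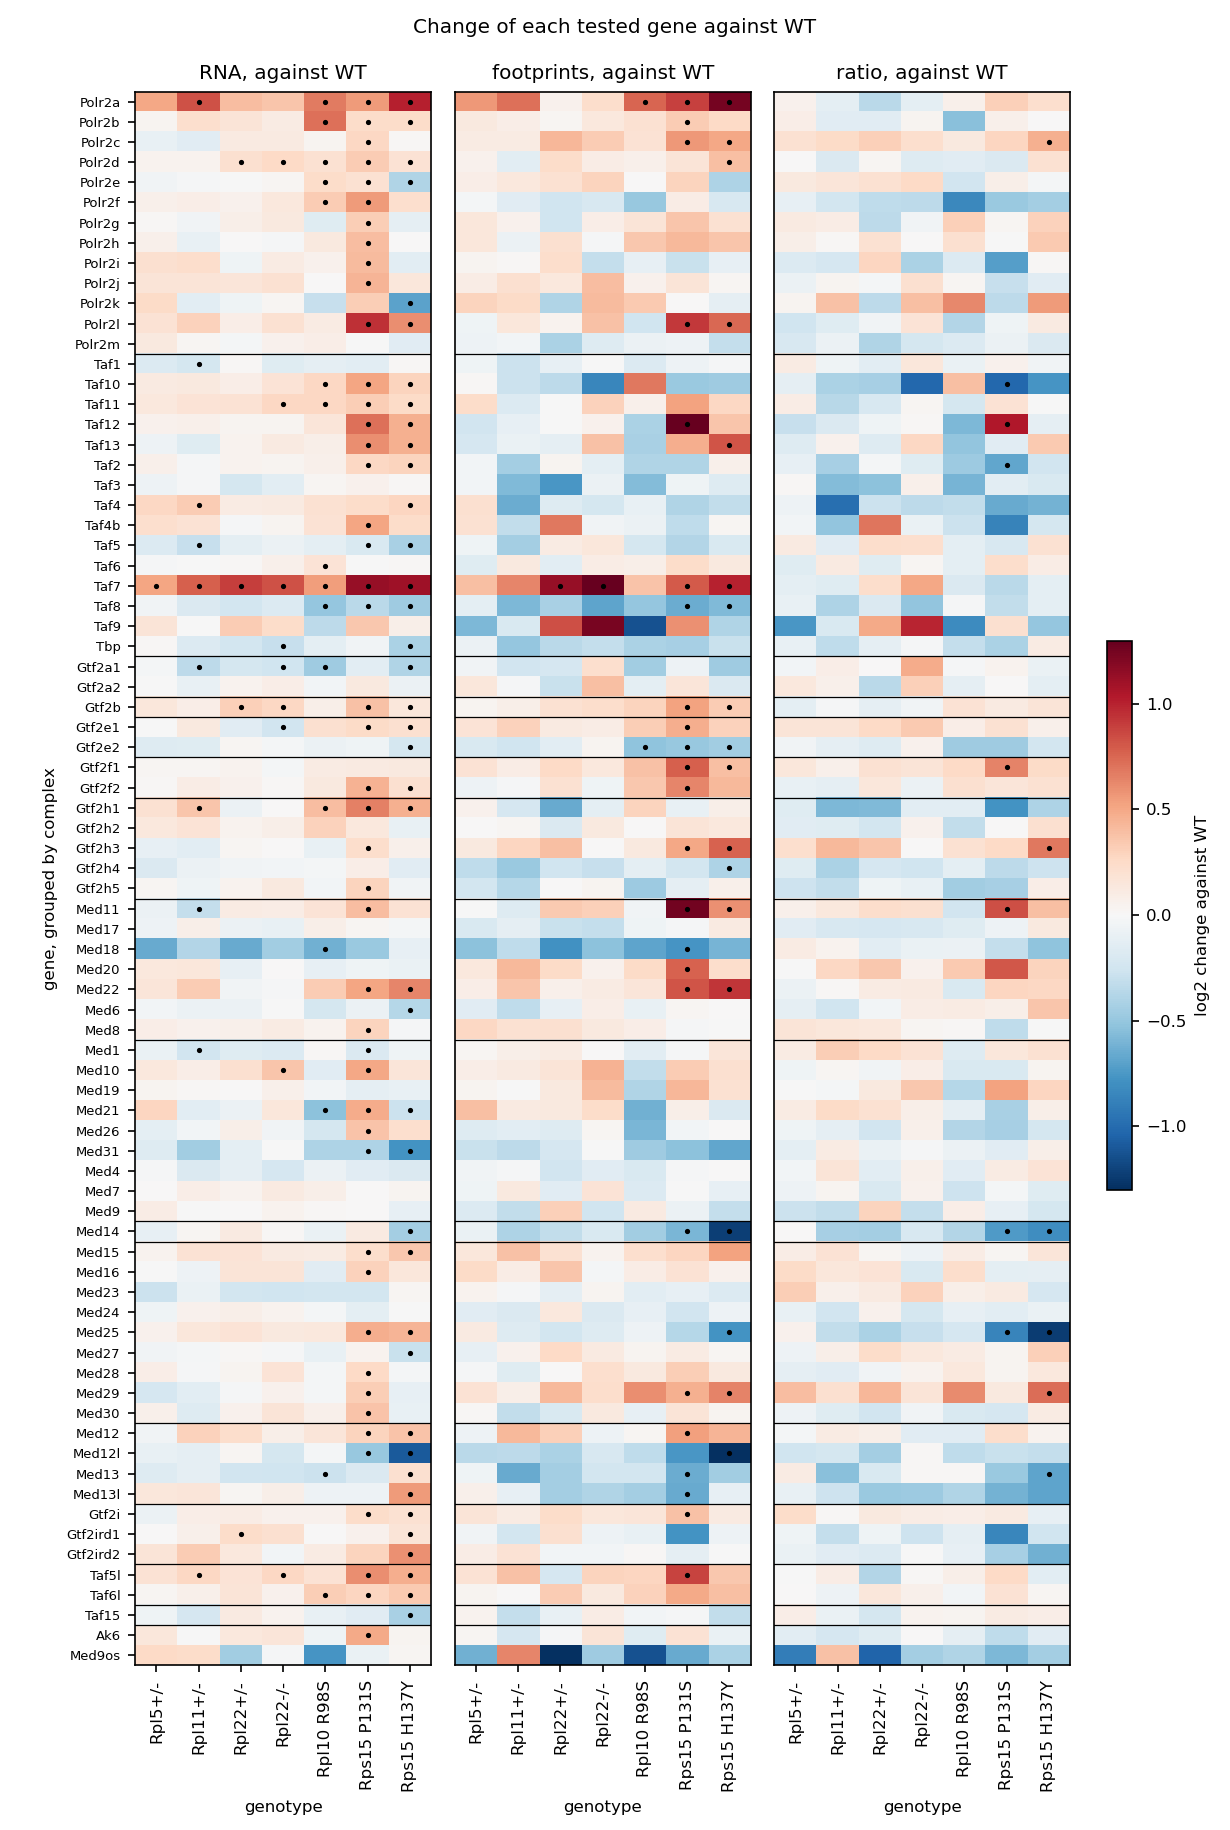
Log2 change against WT of the 78 tested members (rows, grouped by complex) in 7 genotypes (columns) for RNA, footprints and their ratio; dots mark calls at an adjusted p under 0.05. Dots are densest in the RNA of Rps15 P131S (46) and H137Y (40), and the Taf7 row has a dot in every RNA column.

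Most subunits of the polymerase itself had more RNA in P131S than in H137Y in the fit over all genotypes. In P131S RNA 11 of 13 Polr2 genes were higher and none lower (median log2 change 0.33), the exceptions being Polr2k and Polr2m. Of all genes 23.7% were higher and 23.4% lower there. In H137Y RNA 4 were higher and 2 lower (median 0.02), near the 21% and 20% of all genes. The direct test of P131S against H137Y called 10 higher and 1 lower, beside 12.6% of all genes in each direction. As given above, few direct calls among the members were reached when the fit held those 2 genotypes alone. In footprints 4 Polr2 genes were higher and none lower in each genotype (median 0.29 in P131S and 0.20 in H137Y). Of all genes 8.41% and 5.22% were higher there. The direct test in footprints called 1 higher and none lower (median 0.12), beside 2.23% and 1.94% of all genes. Polr2l, a small subunit shared by the 3 nuclear polymerases, had the largest rise in P131S: its RNA was 75.9, 80.9 and 76.6 CPM in the WT clones, 164, 140.5 and 144 in P131S clones 20, 24 and 63, and 126, 134.5 and 94.3 in H137Y clones 16, 2 and 6. No mutant clone of either Rps15 genotype overlapped WT. The log2 change was 0.945 (SE 0.102, adjusted p 5.21e-07, edgeR) in P131S and 0.61 (SE 0.10, adjusted p 8.51e-05) in H137Y.

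Polr2a, the catalytic subunit that carries the C-terminal repeat domain, instead had more RNA in H137Y than in P131S. Its RNA was 80.8, 74.5 and 75.3 CPM in WT, 157, 139.5 and 170.1 in H137Y and 129, 80.2 and 129 in P131S, where clone 24 lay within the WT range. The log2 change was 1.015 (SE 0.14, adjusted p 1.4e-05, edgeR) in H137Y and 0.55 (SE 0.14, adjusted p 0.00305) in P131S, or 0.75 without P131S clone 24. P131S was lower than H137Y by direct test (log2 change -0.46, SE 0.14, adjusted p 0.0193). How far that difference rests on P131S clone 24 is not given here. Footprints of Polr2a had 189, 150.5 and 142 CPM in WT, 365, 385 and 393 in H137Y and 324, 195 and 372 in P131S. These are log2 changes of 1.25 (SE 0.19, adjusted p 0.000238) and 0.89 (SE 0.18, adjusted p 0.00219).

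RNA of Polr2e and Polr2k, both shared with the other polymerases, was lower in H137Y and not in P131S. Polr2e RNA was 75.0, 71.0 and 68.4 CPM in WT, 84.1, 82.7 and 78.3 in P131S and 54.4, 54.1 and 55.0 in H137Y, so the 3 genotypes did not overlap. Its log2 change was -0.39 (SE 0.07, adjusted p 0.000112, edgeR) in H137Y and 0.19 (SE 0.07, adjusted p 0.0229) in P131S, and the direct difference was 0.58 (adjusted p 5.35e-06). Polr2k RNA was 38.8, 44.0 and 43.5 CPM in WT and 24.9, 33.3 and 20.0 in H137Y, a log2 change of -0.69 (SE 0.15, adjusted p 0.00117). The direct difference of P131S from H137Y was 1.02 for Polr2k (adjusted p 9.33e-05), the largest among the Polr2 genes. Polr2e and Polr2k were named after their values were seen.

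The promoters of 2 polymerase genes and of Taf12, described below, are shown because they were among the members that rose most. They lie on GRCm38 at chr11:69733997-69758633 (Polr2a), chr7:141471860-141475153 (Polr2l) and chr4:132274355-132293329 (Taf12), and none of them overlaps another protein-coding gene. The 120 bases before the RefSeq start (GRCm38.p6) are given 5′ to 3′ on the gene's strand, at chr11:69758634-69758753 and chr7:141475154-141475273 on the minus strand and chr4:132274255-132274374 on the plus strand, where the last 20 bases of the Taf12 window lie inside the outer end of the annotated gene. Capitals mark letters that match a searched motif.
Polr2a: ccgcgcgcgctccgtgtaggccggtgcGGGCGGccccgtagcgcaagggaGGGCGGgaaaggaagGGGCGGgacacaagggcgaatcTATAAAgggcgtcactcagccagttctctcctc
Polr2l: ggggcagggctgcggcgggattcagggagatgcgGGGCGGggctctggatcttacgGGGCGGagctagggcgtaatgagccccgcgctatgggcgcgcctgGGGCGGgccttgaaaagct
Taf12: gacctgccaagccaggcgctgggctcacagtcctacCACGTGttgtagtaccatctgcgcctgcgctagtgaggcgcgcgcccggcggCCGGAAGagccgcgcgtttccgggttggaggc
The capitals are the GC box GGGCGG and the TATA box TATAAA in Polr2a, the GC box in Polr2l, and the E-box CACGTG and the ETS motif CCGGAAG in Taf12. On both strands of the 250 bases before the start, 65.2% of 66 tested members with a protein-coding RefSeq window held GGGCGG, against 42.7% of 17492 protein-coding genes. For CCGGAAG the shares were 22.7% and 9.15%, for the NRF1 motif GCATGCGC 10.6% and 2.98%, for CACGTG 13.6% and 6.65%, and for the YY1 motif AAGATGGC 3.03% and 1.5%. For TATAAA they were 13.6% and 12.4% and for CCAAT 33.3% and 36.5%. The members were limited to those tested in RNA, while the 17492 genes were not limited by expression, so the 2 sets are unlike. Whether the shares differ among expressed genes was not tested. These matches describe letters only.

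Taf7, a TFIID subunit known to hold back the acetyltransferase activity of Taf1, was the only member called in the RNA of all 7 mutant genotypes, and it was higher in each. Its RNA was 19.6, 20.2 and 21.9 CPM in WT and between 27.2 (an Rpl10 R98S clone) and 48.3 CPM (an H137Y clone) in the 21 mutant clones, none of which overlapped WT. The log2 changes were 0.51 in Rpl5+/- (SE 0.10, adjusted p 0.0161, edgeR), 0.54 in R98S, 0.78 in Rpl11+/-, 0.83 and 0.90 in the homozygous and heterozygous Rpl22 genotypes, 1.11 in H137Y and 1.13 in P131S (SE 0.10, adjusted p 3.65e-08). All 7 comparisons share the same 3 WT clones, so they are not independent of each other. The Rpl5+/- call was lost without WT clone 1 (0.48), 2 (0.50) or 3 (0.56), or Rpl5+/- clone 68 (0.49) or 80 (0.48). Rpl5+/- was thus left with 0 calls in those fits.

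Footprints of Taf7 were 35.6, 37.2 and 31.6 CPM in WT. They were 68.0, 76.9 and 84.3 CPM in Rpl22+/- and 101, 83.4 and 78.8 in Rpl22-/-, where clone 30 with its remaining Rpl22 footprints was the highest. The log2 changes were 1.13 in Rpl22+/- (SE 0.17, adjusted p 0.00557, edgeR) and 1.33 in Rpl22-/- (SE 0.17, adjusted p 0.000686), or 1.22 without clone 30. In Rpl22+/- the call was lost when only that genotype and WT were fitted (adjusted p 0.082). H137Y (1.00, SE 0.17, adjusted p 0.000623) and P131S (0.80, SE 0.17, adjusted p 0.00243) were called as well. In the RefSeq annotation the Taf7 gene overlaps 3 other protein-coding gene models, and whether the counting used strand is not given in the sources used here.

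**Figure D2:**
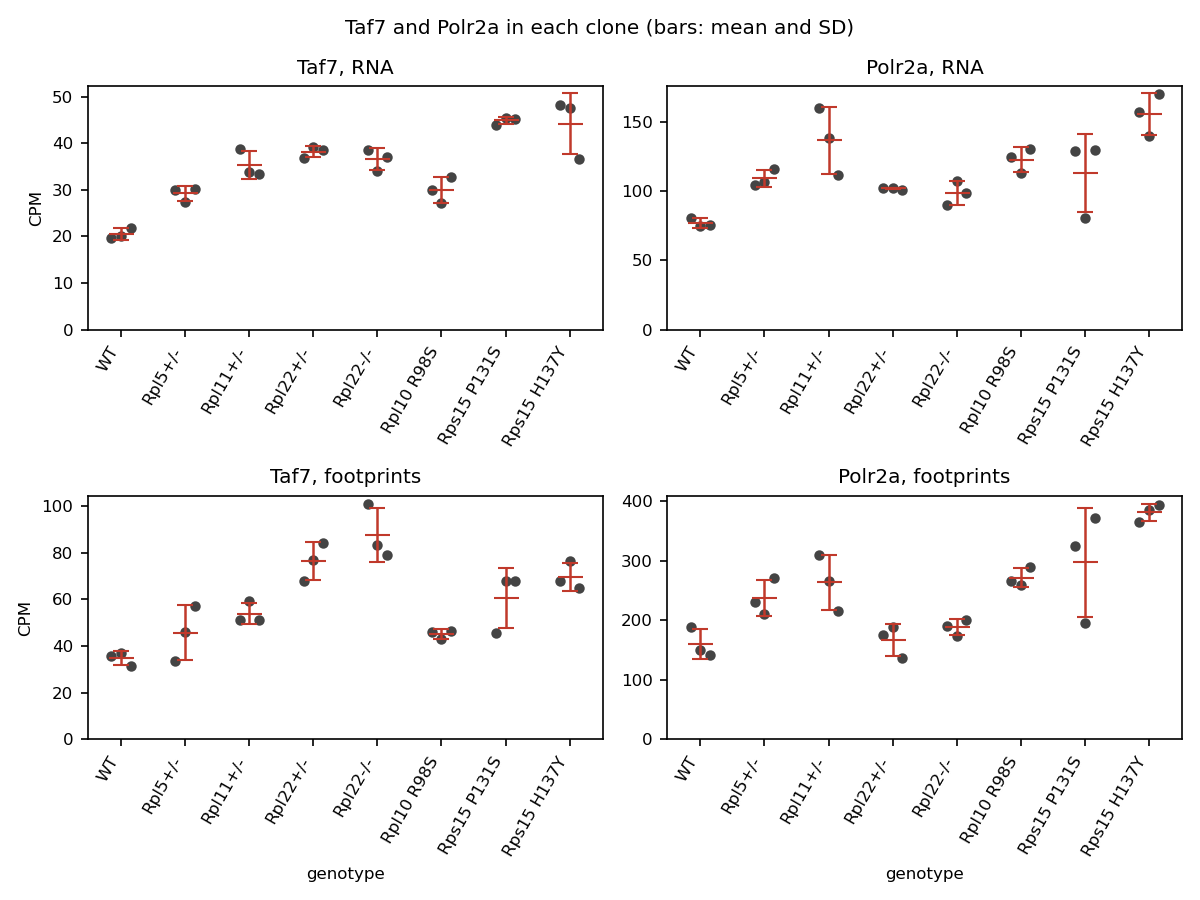
CPM of Taf7 and Polr2a in RNA and footprints by genotype; dots are clones and bars the mean with its SD (n = 3). All 21 mutant clones lie above the 3 WT clones in Taf7 RNA, and Polr2a RNA of P131S holds 1 clone at 80.2 CPM beside 2 at 129 CPM.

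Of the 15 TFIID genes, 7 were higher and 2 lower in P131S RNA (median log2 change 0.26), and 7 were higher and 3 lower in H137Y (median 0.23), where 23.7% and 23.4% of all genes were higher and lower in P131S and 21% and 20% in H137Y. Those lower in H137Y were thus at the share of all genes. Taf12 RNA was 45.4, 52.5 and 46.5 CPM in WT, 87.2, 75.8 and 74.7 in P131S and 65.0, 64.3 and 69.4 in H137Y. Its log2 changes were 0.72 (SE 0.09, adjusted p 3.67e-06, edgeR) and 0.46 (SE 0.09, adjusted p 0.000474). Taf13, the partner of Taf11, changed by 0.60 in P131S and 0.47 in H137Y, and Taf10, shared with the SAGA coactivator, by 0.51 and 0.29. Taf8 (-0.36 and -0.46) and Taf5 (-0.19 and -0.42) fell in both genotypes. Tbp was 35.25, 31.86 and 31.04 CPM in WT and 25.6, 23.5 and 24.5 in H137Y, a log2 change of -0.41 (SE 0.08, adjusted p 0.000465). It was 33.5, 30.5 and 31.4 CPM in P131S, which overlapped WT. Taf1, the largest TFIID subunit, was 58.6, 59.6 and 56.5 CPM in WT and 50.7, 49.0 and 49.5 in Rpl11+/-, where it fell (log2 change -0.23, adjusted p 0.0212).

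The factors TFIIA, TFIIB, TFIIE, TFIIF and TFIIH count 12 genes, of which 6 were higher and none lower in P131S RNA and 4 were higher and 2 lower in H137Y, beside the same shares of all genes. Gtf2b, which bridges Tbp and the polymerase, had 45.4, 43.3 and 47.1 CPM in WT and 62.5, 56.7 and 57.9 in P131S, a log2 change of 0.38 (SE 0.06, adjusted p 2.49e-05, edgeR). Its change in H137Y was 0.15 (adjusted p 0.046), lost without H137Y clone 16 (0.145) or 2 (0.12) or WT clone 1 (0.15) or 2 (0.12). The TFIIH subunit Gtf2h1 was 99.0, 104.5 and 96.7 CPM in WT, 193, 136.5 and 141 in P131S and 128, 135 and 150.1 in H137Y, with log2 changes of 0.65 (adjusted p 3.85e-05) and 0.46 (adjusted p 0.00131). Gtf2f2 of TFIIF rose by 0.45 in P131S. Gtf2a1, the large TFIIA subunit, was called lower in 4 genotypes, with log2 changes of -0.40 in H137Y, -0.46 in R98S, -0.34 in Rpl11+/- and -0.26 in Rpl22-/-. In WT it was 57.2, 58.8 and 56.8 CPM, and no clone of those genotypes exceeded 49.4 CPM. The clones of Rpl22+/- (49.6, 48.1 and 49.6 CPM) and P131S (53.5, 49.6 and 53.8) also lay below WT, without a call. Those of Rpl5+/- overlapped WT.

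Of the 30 Mediator genes, 13 were higher and 3 lower in P131S RNA (median log2 change 0.04; 23.7% and 23.4% of all genes). In H137Y 6 were higher and 6 lower (median -0.02), which is the share of all genes (21% and 20%) and no result about Mediator. Med10 of the middle module had the lowest adjusted p in P131S (log2 change 0.51, SE 0.07, adjusted p 1.07e-05, edgeR), with 53.9, 54.0 and 58.1 CPM in WT and 81.8, 76.1 and 77.9 in P131S. Med22 of the head, the partner of Med11, rose in both (0.51 and 0.64), and so did Med25, a tail subunit bound by activators (0.48 and 0.44).

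Of the 4 genes of the kinase module, 3 were higher and 1 lower in H137Y RNA, beside 21% and 20% of all genes. In P131S 1 was higher and 1 lower, beside 23.7% and 23.4%. Med12l RNA was 17.5, 17.1 and 19.7 CPM in WT and 7.97, 8.29 and 9.30 in H137Y, a log2 change of -1.09 (SE 0.16, adjusted p 2.68e-05, edgeR). Its paralog Med12 rose by 0.37 there (adjusted p 0.0152), from 38.9, 39.4 and 38.6 to 54.9, 46.4 and 49.6 CPM. The Med12 call was lost without H137Y clone 16 (0.30). Med13l rose by 0.55 (adjusted p 0.000111) and Med13 by 0.21 (adjusted p 0.0489), both in H137Y. In P131S Med12l was 8.13, 13.9 and 16.6 CPM (log2 change -0.49, adjusted p 0.0155), and this call was lost without P131S clone 20 (-0.25) or WT clone 3 (-0.43). Med31 of the middle module fell by 0.77 in H137Y (adjusted p 0.000536), from 9.191, 11.94 and 10.96 CPM to 6.47, 7.28 and 5.04. Med14 RNA was 57.4, 63.0 and 61.0 CPM in WT, 44.3, 44.6 and 44.9 in H137Y and 70.5, 61.9 and 64.8 in P131S. It fell in H137Y (-0.44, adjusted p 0.00016) and was 0.56 higher in P131S than in H137Y (adjusted p 3.84e-05). Med1 was lower in P131S (-0.19, adjusted p 0.0385), a call lost without either of P131S clones 24 (-0.16) and 63 (-0.18), or WT clone 1 (-0.20), 2 (-0.20) or 3 (-0.16).

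Genes outside these complexes that share the naming pattern moved too. The SAGA subunit Taf5l rose in P131S (0.60, SE 0.08, adjusted p 2.58e-06, edgeR) and in H137Y (0.475, adjusted p 4.48e-05). In H137Y RNA all 3 TFII-I genes were called higher (Gtf2i 0.20, Gtf2ird1 0.17, Gtf2ird2 0.595), beside 21% of all genes. In H137Y footprints none of them was called (median log2 change -0.01). The RNA-binding FET protein gene Taf15 was lower in H137Y RNA (-0.42, adjusted p 0.0148), beside 20% of all genes. That call was lost without H137Y clone 16 (-0.38) or 6 (-0.33). Ak6 rose by 0.49 in P131S (adjusted p 0.000221), and its annotation overlaps that of Taf9.

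**Figure D3:**
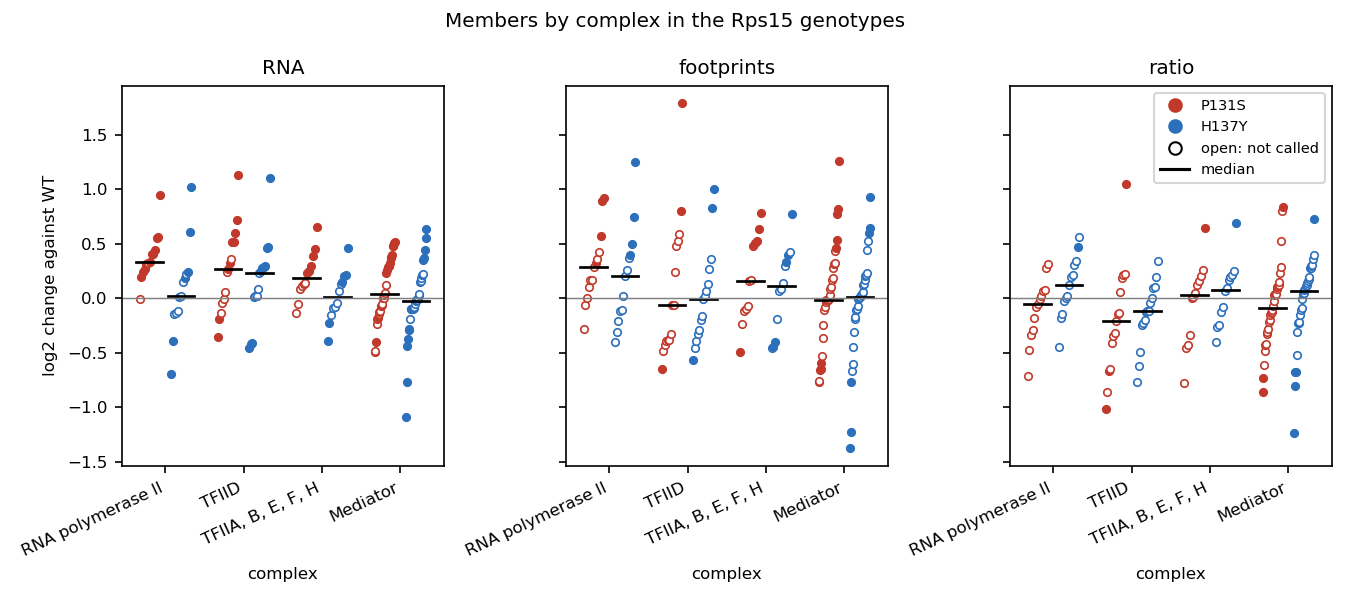
Log2 change against WT of each tested member in P131S (red) and H137Y (blue), by complex, for RNA, footprints and ratio; filled dots were called and the bar is the median. In RNA the medians of P131S are 0.33 for RNA polymerase II and 0.04 for Mediator, while those of H137Y are 0.02 and -0.02.

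In RNA of the large-subunit genotypes, Rpl5+/- had 1 call (Taf7), 1.28% of the members beside 1.04% of all genes. Rpl22+/- had 4 (5.13% beside 3.9%) and Rpl22-/- 9 (11.5% beside 5.27%). Rpl11+/- had 5 higher and 5 lower (12.8% beside 11.8%), and Rpl10 R98S 11 higher and 5 lower (20.5% beside 12.9%). The counts of Rpl5+/-, Rpl22+/- and Rpl11+/- were thus near the share of all genes and no result about the members. The Rpl22+/- calls were Taf7, Gtf2b (0.31), Polr2d (0.21) and Gtf2ird1 (0.24). Polr2d, a subunit of the polymerase stalk, and Med10 were among the calls with the lowest adjusted p in Rpl22-/- (0.26, adjusted p 0.00469, and 0.36, adjusted p 0.0041, edgeR). In fits that held only the genotype and WT, the counts were 15 in Rpl5+/-, 10 in Rpl22+/-, 15 in Rpl22-/-, 28 in Rpl10 R98S and 4 in Rpl11+/-. The shares of all genes called in those fits are not given here, so these counts are no result about the members. Leaving out 1 clone moved most of these counts by more than 1.5 times: Rpl10 R98S to 7 (WT clone 3), 9 (clone A29) or 10 (clone A30 or WT clone 1), and Rpl11+/- to 4 (clone 22 or any WT clone), 6 (clone 406) or 16 (clone 414). Rpl22+/- fell to 2 without clone 13 or 16 or WT clone 1 or 3, which ended the Polr2d and Gtf2ird1 calls (0.19 to 0.25). Rpl22-/- fell to 4 (clone 30 or WT clone 2) or 5 (clone 776 or WT clone 1 or 3).

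Polr2b, the second-largest subunit and the partner of Polr2a in the catalytic core, stood out in Rpl10 R98S. Its RNA was 96.6, 98.8 and 90.2 CPM in WT and 161, 148 and 160 in R98S, above every other mutant clone, of which the highest had 121.5. The log2 change was 0.71 (SE 0.08, adjusted p 8.63e-06, edgeR). Footprints of Polr2b were 304, 274 and 237 CPM in WT and 320, 303 and 311 in R98S, and these overlapped. Polr2a RNA was also higher in R98S (124.5, 113 and 130 CPM, log2 change 0.67, adjusted p 0.0041) and in Rpl11+/- (160.1, 138 and 112 CPM, log2 change 0.83, adjusted p 0.00106).

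Averaged over the 2 Rps15 genotypes and set against the mean of the 5 large-subunit genotypes, without WT, 37 members were higher and 10 lower in RNA beside 26.7% and 25.9% of all genes. In footprints 20 were higher and 4 lower beside 12.4% and 12.9% of 16217 genes tested, or 15 in all without P131S clone 20.

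Fewer members were called in footprints than in RNA. In P131S 18 were higher and 6 lower (8.41% and 8.27% of all genes), and 17 of the 46 RNA calls were also footprint calls, all in the same direction. In H137Y 12 were higher and 6 lower (5.22% and 6.44%), with 12 of 40 RNA calls shared, 11 in the same direction. The exception was Med25. The count for P131S was 13 without P131S clone 20 and 14 without WT clone 2. That for H137Y was 9, 11 and 10 without WT clones 1, 2 and 3 and 10 without H137Y clone 16. Direct comparison of P131S with H137Y called 3 members higher and none lower (2.23% and 1.94%), namely Taf12, Polr2e and Med11. That count was 1 without P131S clone 20 or H137Y clone 6, and with those 2 genotypes alone.

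Taf12 had the largest footprint change of the 78 members in P131S. Its footprints were 82.5, 72.4 and 66.2 CPM in WT, 309, 201 and 253 in P131S and 104, 92.6 and 86.5 in H137Y. The 3 P131S clones exceeded every other clone of the panel, and H137Y lay just above WT. The log2 change in P131S was 1.79 (SE 0.16, adjusted p 1.37e-06, edgeR) against WT and 1.43 (SE 0.16, adjusted p 2.33e-05) against H137Y. Med11, a head subunit, went from 17.1, 18.6 and 19.9 CPM in WT to 45.7, 36.1 and 51.3 in P131S (1.26, SE 0.19, adjusted p 0.000193) and 30.5, 24.8 and 28.8 in H137Y (0.60, SE 0.19, adjusted p 0.0406).

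Other polymerase and factor genes rose at this level in both Rps15 genotypes. Footprints of Polr2l were 412, 426 and 378 CPM in WT, 869, 621 and 804 in P131S and 741, 686 and 609 in H137Y (log2 changes 0.92 and 0.74). Polr2c, which forms the assembly platform with Polr2j, rose by 0.57 and 0.50, Gtf2b by 0.52 and 0.33, Gtf2h3 by 0.50 and 0.77 and Med22 by 0.82 and 0.93. Gtf2f1 rose by 0.78 and 0.40, Gtf2f2 by 0.63 in P131S, and Gtf2e1 by 0.475 in P131S, where clone 24 (58.18 CPM) lay just inside the WT range. Of these, the P131S call of Gtf2h3 was lost without P131S clone 20 (0.38) or WT clone 1 (0.50) or 2 (0.43). The H137Y calls of Gtf2b (0.264 to 0.355 in the 5 fits that lost it) and Gtf2f1 (0.31 to 0.42 in the 5 that lost it) ended in nearly every fit with 1 clone fewer. Taf5l (0.88) and Gtf2i (0.38) also rose in P131S, the second only with clone 20 (0.33 without it).

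Footprints fell for several members. Gtf2e2, the small TFIIE subunit, was 224, 227.5 and 184 CPM in WT, 136, 155 and 160.2 in P131S, 136.9, 161.4 and 165.9 in H137Y and 149, 140 and 155 in Rpl10 R98S. It was lower in all 3 of these genotypes (-0.49, adjusted p 0.00889, -0.45, adjusted p 0.0211, and -0.52, adjusted p 0.0367, edgeR). Without WT clone 2 these became -0.40, -0.38 and -0.46 and were no longer called, and without WT clone 1 they were -0.43, -0.41 and -0.48, also not called. The P131S call was also lost without clone 20 (-0.43), that of H137Y without clone 16 (-0.36) and that of R98S without clone A29 (-0.53), A30 (-0.47) or A34 (-0.55). Med12l footprints fell by 1.38 in H137Y (adjusted p 0.0211), from 8.63, 7.42 and 9.39 to 4.00, 2.76 and 3.02 CPM. This call was lost without H137Y clone 2 (-1.26) or 6 (-1.32), or WT clone 1 (-1.36) or 3 (-1.29). In P131S the kinase-module genes Med13 (-0.65) and Med13l (-0.66) fell while Med12 rose (0.54), and the calls of Med13l and Med12 ended in 5 of 6 fits with 1 clone fewer, at -0.71 to -0.50 for Med13l and 0.52 to 0.58 for Med12.

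In large-subunit genotypes 4 footprint calls were made among the members: Taf7 in Rpl22+/- (beside 0.253% of all genes) and Rpl22-/- (0.105%), and Polr2a and Gtf2e2 in Rpl10 R98S (1.62%). Polr2a footprints were 266, 258 and 290 CPM in R98S, above WT (log2 change 0.76, adjusted p 0.038, edgeR), a call lost in each of the 6 fits with 1 clone fewer (0.68 to 0.89). Rpl5+/- had 0 calls beside 0.0123%, with 5 members at an unadjusted p under 0.05 and 0 calls by DESeq2 and by limma voom. Rpl11+/- had 0 beside 0.074%, with 16 at an unadjusted p under 0.05 and 4 and 0 calls by those tools, and 4 without Rpl11+/- clone 414. Rpl22+/- had 4 without its clone 16 and 4 by DESeq2, but 0 in the fit with WT alone, and Rpl22-/- had 2 by DESeq2. Rpl10 R98S had 6 by DESeq2 and 5 by limma voom and in the fit with WT alone.

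The ratio of footprints to RNA, the interaction of assay and genotype over all 48 libraries, measures where footprints changed beyond RNA. In P131S 3 members were higher and 4 lower, and in H137Y 3 higher and 3 lower, 7 and 6 calls beside 3.14% and 2.73% of the 16568 genes tested. Over all 78 the median was -0.075 and 0, beside -0.013 and -0.019 over all genes. None of the Polr2 genes was called in P131S and only Polr2c in H137Y. DESeq2 called 13 and limma voom 10 in P131S. The P131S count was 2 or 3 without P131S clone 20 or 63 or any WT clone, and the H137Y count 3, 2 and 1 without H137Y clone 6, WT clone 1 and WT clone 2.

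Taf12 had the highest ratio change in P131S. Its log2 ratio per clone was 0.86, 0.46 and 0.51 in WT, 1.82, 1.41 and 1.76 in P131S and 0.68, 0.53 and 0.32 in H137Y. Both Rps15 genotypes had more Taf12 RNA, but only the P131S clones stood apart in the ratio. The change was 1.05 (SE 0.18, adjusted p 0.000627, edgeR) against WT and 1.17 (SE 0.18, adjusted p 0.000597) against H137Y, where Taf12 was the only call among the members beside 0.682% of all genes. With the clone as a block that comparison had 3 calls, and with those 2 genotypes alone it had 0, with Taf12 at 1.15 and an adjusted p of 0.1. Against WT, Taf12 was called in all 6 fits with 1 clone fewer (0.98 to 1.22).

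Med25 and Med14 were lower in the ratio in both Rps15 genotypes. The log2 ratio of Med25 was -2.10, -2.05 and -1.56 in WT, -2.76, -2.90 and -2.56 in P131S and -3.24, -3.32 and -2.79 in H137Y, with changes of -0.86 (SE 0.20, adjusted p 0.00816, edgeR) and -1.24 (SE 0.20, adjusted p 0.000206). Med25 RNA rose in both, from 48.5, 45.3 and 44.5 CPM in WT to 67.7, 63.1 and 61.9 in P131S and 65.0, 62.5 and 60.4 in H137Y. Its footprints were 11.32, 10.96 and 15.07 CPM in WT, 10.01, 8.443 and 10.51 in P131S and 6.90, 6.25 and 8.74 in H137Y. They fell in H137Y (-0.77, adjusted p 0.0158), a call lost without H137Y clone 16 (-0.73) or 2 (-0.67) or WT clone 3 (-0.61). In the ratio the H137Y call held in all 6 fits with 1 clone fewer (-1.37 to -1.02), and that of P131S was lost without P131S clone 20 (-0.83) or 24 (-0.76) or WT clone 3 (-0.64).

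Med14 had log2 ratios of -1.22, -1.09 and -1.21 in WT, -2.13, -1.74 and -1.79 in P131S and -2.19, -1.68 and -2.06 in H137Y. The 3 clones of each mutation lay below WT. In P131S and H137Y the changes were -0.74 (SE 0.20, adjusted p 0.0317, edgeR) and -0.80 (SE 0.20, adjusted p 0.0188). Med14 footprints were 24.7, 29.6 and 26.4 CPM in WT, 16.2, 18.5 and 18.8 in P131S and 9.73, 13.9 and 10.7 in H137Y (-0.59, adjusted p 0.0316, and -1.23, adjusted p 0.000329). With 1 clone fewer the P131S calls of Med14 were lost in all 6 fits, at -0.77 to -0.60 in the ratio and -0.63 to -0.49 in footprints. The H137Y ratio call was lost in 5 of 6, all but that without H137Y clone 2 (-0.95 to -0.67 over all 6), while its footprint call was made in each.

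The other ratio calls belonged to 1 mutation each, and whether the mutations differ is given by the direct test, which called none of these. In P131S the ratio rose for Gtf2f1 (0.64, SE 0.15, adjusted p 0.0118, edgeR) and Med11 (0.84, SE 0.21, adjusted p 0.019), and fell for Taf10 (-1.02, SE 0.26, adjusted p 0.0179) and Taf2 (-0.67, SE 0.17, adjusted p 0.0197), the TFIID subunit that contacts the initiator. Taf10 RNA was 156, 152 and 141 CPM in WT and 227, 210.0 and 203 in P131S, while its footprints were 29.4, 34.3 and 53.6 CPM in WT and 22.2, 35.0 and 26.5 in P131S and overlapped. Taf10 overlaps the gene Ilk in the annotation. Without WT clone 3, the highest of them in footprints, the Taf10 change was -0.64 and no longer called. It was also lost without P131S clone 20 (-0.81) or 63 (-0.985), or WT clone 2 (-1.06). Gtf2f1 was lost without P131S clone 20 (0.51) or WT clone 1 (0.67), and Med11 without P131S clone 63 (0.68) or WT clone 1 (0.865), 2 (0.89) or 3 (0.90). Taf2 was called only in the fit without P131S clone 24 (-0.82), and was -0.67 to -0.48 in the other 5.

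In H137Y the ratio rose for Polr2c (0.47, SE 0.10, adjusted p 0.00727, edgeR), Gtf2h3 (0.69, SE 0.15, adjusted p 0.0066) and Med29 of the Mediator tail (0.73, SE 0.18, adjusted p 0.0147). It fell for Med13 (-0.68, SE 0.18, adjusted p 0.031), the subunit that ties the kinase module to Mediator. Polr2c RNA was 67.7, 70.7 and 70.2 CPM in WT and 69.3, 72.8 and 68.8 in H137Y, while its footprints were 45.2, 37.6 and 45.3 against 63.0, 59.6 and 58.6 CPM. Med13 showed RNA above WT (94.7, 87.2 and 99.3 against 111, 113 and 102 CPM) and footprints below it (52.3, 52.4 and 52.8 against 41.4, 43.6 and 30.2 CPM). The call of Polr2c was lost without WT clone 2 (0.41), that of Gtf2h3 without WT clone 1 (0.68) or 2 (0.61), and that of Med29 without H137Y clone 6 (0.65) or WT clone 1 or 2 (0.73 each). Med13 was lost in 5 of 6 fits (-0.69 to -0.55), all but that without H137Y clone 2.

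**Figure D4:**
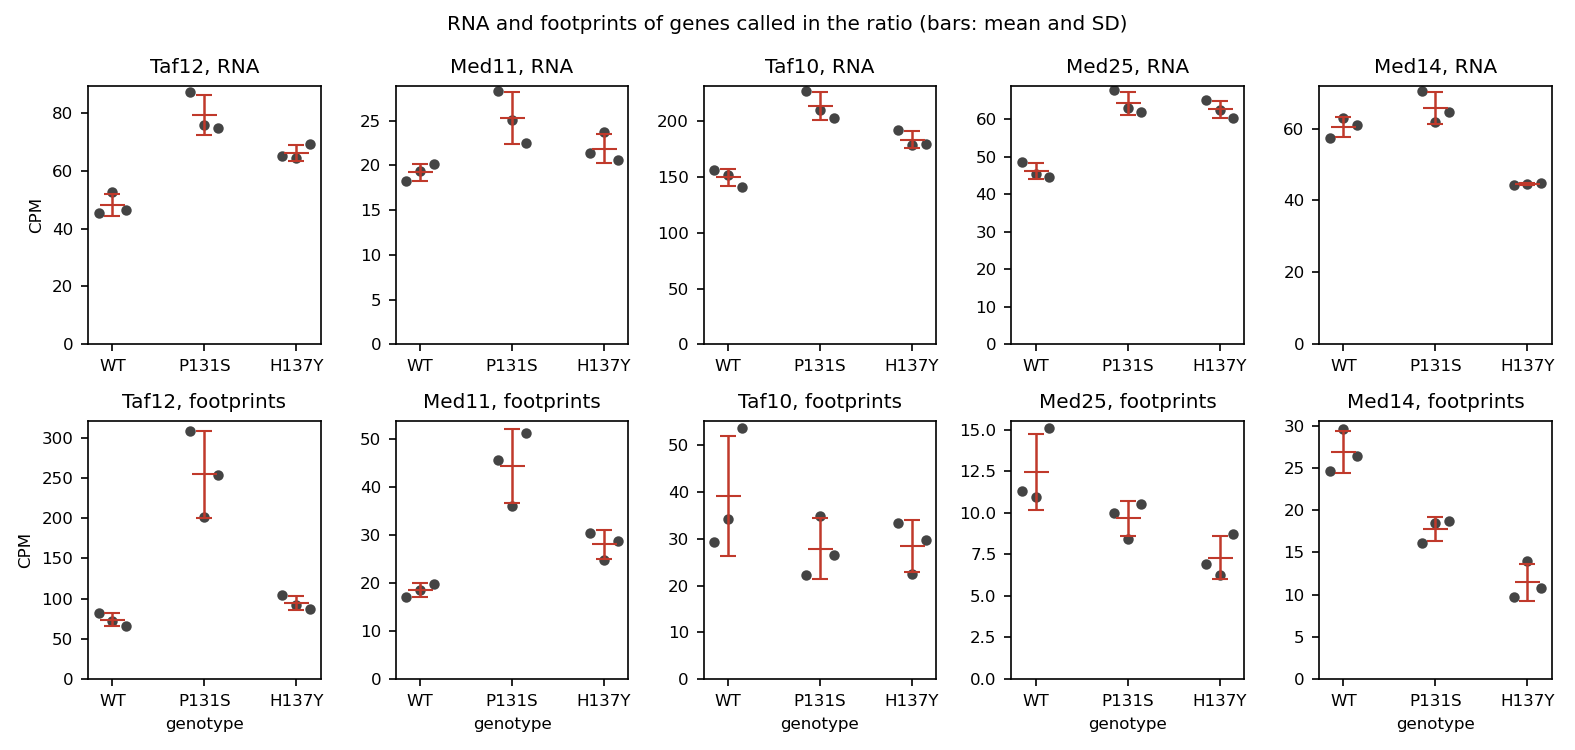
CPM in RNA (top) and footprints (bottom) of 5 genes called in the ratio, in WT, P131S and H137Y; dots are clones and bars the mean with its SD (n = 3). Taf12 footprints of P131S (201 to 309 CPM) stand far above the other genotypes, while Med25 has more RNA and fewer footprints in H137Y than in WT.

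No ratio call was made among the members in a large-subunit genotype against WT. The share of all genes called was 0% in Rpl5+/- and Rpl11+/-, 0.00604% in Rpl22+/-, 0.0121% in Rpl22-/- and 0.217% in Rpl10 R98S. At an unadjusted p under 0.05 there were 3, 10, 10, 7 and 8 members in that order, DESeq2 called 0, 0, 0, 1 and 2 and limma voom 0 in each, and with the clone as a block 3 were called in Rpl10 R98S. The mean of the Rps15 genotypes against that of the large-subunit genotypes had 3 higher and 5 lower. That is 10.3% of the members, near the 8.1% of all genes. The lowest adjusted p belonged to Med25 (-0.81, adjusted p 1.16e-05, edgeR), Taf12 (0.69, adjusted p 4.14e-05), Med11 (0.54), Med13 (-0.46) and Med14 (-0.48). That count was 5 without H137Y clone 16, which ended the Med14 call (-0.40), and 13 without Rpl11+/- clone 22.

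In WT the members spanned a wide range of footprint over RNA CPM, a ratio that also reflects untranslated length. Polr2l had the highest value, 5.21 (log2 2.30 to 2.44 over 3 clones), and the SAGA gene Taf5l the lowest, 0.139 (log2 -3 to -2.60). The median log2 value was -0.07 over 78 members and -0.31 over 12013 genes. Med25 (0.270) and Taf10 (0.261), whose ratio fell in P131S, stood at the 15.2 and 14.6 percentile of all genes.

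Other genes of polymerase II transcription, in a list of 57 tested genes, had 23 higher and 9 lower in P131S RNA (median log2 change 0.06), beside 23.7% and 23.4% of all genes, and 16 and 14 in H137Y (median -0.01), near the 21% and 20% of all genes. The members' medians were 0.245 and 0.024. Hexim1, which inhibits the elongation kinase P-TEFb, rose in both (1.15, SE 0.13, adjusted p 1.33e-06, and 1.41, SE 0.13, adjusted p 1.09e-07, edgeR). Its kinase partner cyclin Ccnt1 fell (-0.70 and -0.33), while the kinase Cdk9 rose (0.33 and 0.22). Of the kinase pair of Mediator, Cdk8 rose (0.68 and 0.26) and Cdk19 fell in P131S (-0.49). In footprints 10 were higher and 4 lower in P131S (8.41% and 8.27% of all genes) and 5 higher and 6 lower in H137Y (5.22% and 6.44%). In the ratio 2 were higher and 3 lower in P131S (3.14% of all genes in either direction), and 1 higher and 5 lower in H137Y (2.73%). A list of 22 genes of polymerases I and III was chosen by symbol and, beside subunits and factors, also holds the antisense gene Polr1has. It had 13 higher and 5 lower in P131S RNA (median 0.35) and 7 and 5 in H137Y (median 0.14), beside the RNA shares of all genes just given. Polr1a, the catalytic subunit of polymerase I, rose in both (0.95 and 0.98).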

How the data were processed

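RNA-seq and RIBO-seq were measured in 48 libraries, 3 clones of each of 8 genotypes in each assay. The authors deposited a table of estimated counts per gene (11.5% of values carry a fraction), made with STAR 2.6.1d, Salmon 1.4.0 and DESeq2 1.30 on GRCm38 per the submitters' processing notes. The annotation, the use of strand and the handling of reads with several matches are not given in the sources used here. The estimated counts were rounded to whole numbers. Genes were kept by filterByExpr (minimum count 10, total 15), libraries scaled by TMM within each assay, and tested with the quasi-likelihood method of edgeR 4.0.16 in R 4.3.3, over all 24 libraries of an assay, with Benjamini-Hochberg adjustment over all genes tested and a threshold of 0.05. The ratio is the interaction of assay and genotype over 48 libraries. The scripts were tested on simulated data. Clones are the replicates, and p-values measure the spread between clones of 1 line.

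Alternatives were DESeq2 1.42.0, limma 3.58.1 voom, RLE factors, no count filter, fits of only the groups compared, leaving out each clone, and the clone as a block for the ratio. The labels tie both assays of a clone to 1 divided lysate. Same-clone deviations of RNA and footprints correlated at 0.226 to 0.696 over 8441 genes (24 of 24 over 0.1), and those of different clones of a genotype at -0.601 to 0.054.

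The members and lists were chosen with earlier results of these data known. Named genes are Polr2a, Tbp, Gtf2b, Taf1, Med1, Med14 and Med12, and for each Rps15 genotype and level the 6 called members of lowest adjusted p and the called member of largest change in each complex. For other genotypes they are all called members where there were at most 5 and otherwise the 3 of lowest p, and for the 2 differences in the ratio at most 5. Other genes were named after their values were seen. The naming of Ak6 was also decided then. Promoters come from RefSeq (GRCm38.p6). Protein sequences and a planned description of footprints by codon were not analysed here. The level of 1 further marker is not reported here.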

Additional observations from a re-analysis of the deposited data

Results flagged for a closer look

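Each of the following members had a change in footprints beyond RNA, that is, the genotype difference was not the same in the 2 assays by the interaction test (edgeR, adjusted p in brackets). In P131S against WT these were Taf12 at 1.05 (0.000627), Med25 at -0.86 (0.00816), Gtf2f1 at 0.64 (0.0118), Taf10 at -1.02 (0.0179), Med11 at 0.84 (0.019), Taf2 at -0.67 (0.0197) and Med14 at -0.74 (0.0317). In H137Y they were Med25 at -1.24 (0.000206), Gtf2h3 at 0.69 (0.0066), Polr2c at 0.47 (0.00727), Med29 at 0.73 (0.0147), Med14 at -0.80 (0.0188) and Med13 at -0.68 (0.031). Between the mutations it was Taf12 at 1.17 (0.000597).

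Between the mean of the Rps15 genotypes and that of the large-subunit genotypes, the ratio differed for Med25 by -0.81 (1.16e-05), Taf12 by 0.69 (4.14e-05), Med11 by 0.54 (0.00476), Med13 by -0.46 (0.00492), Med14 by -0.48 (0.00753), Taf10 by -0.57 (0.0124), Med19 by 0.39 (0.0337) and Taf4b by -0.50 (0.0425). For all 8 the clones of the 2 sides overlapped. Groups of 3 clones were not tested for outliers.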

How the results depend on the processing

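Counts of called members in RNA kept within 1.5 times for P131S (36 to 45) and H137Y (31 to 40) with 1 clone fewer, and for the Rps15 mean against the large-subunit mean (42 to 48). Fits of only the groups compared gave in RNA 28 calls for Rpl10 R98S, 4 for Rpl11+/-, 10 for Rpl22+/-, 15 for Rpl22-/-, 15 for Rpl5+/- and 5 for P131S against H137Y. In footprints they gave 5 for R98S, 0 for Rpl22+/- and 1 for P131S against H137Y, and in the ratio 1 for R98S, 2 for H137Y and 0 for P131S against H137Y. DESeq2 gave in RNA 2 for Rpl5+/-, in footprints 6 for R98S, 4 for Rpl11+/-, 4 for Rpl22+/- and 2 for Rpl22-/-, and in the ratio 2 for R98S, 1 for Rpl22-/-, 2 for P131S against H137Y and 13 for P131S. Limma voom gave 5 for R98S in footprints. Without the count filter there were 2 for Rpl22+/- and 5 for Rpl22-/- in RNA, 1 for Rpl11+/- in footprints, and 1 for R98S and 3 for P131S in the ratio. RLE factors moved none of these counts by over 1.5 times. With the replicate block the ratio had 3 calls for R98S and 3 for P131S against H137Y, and no other ratio count moved by over 1.5 times. The shares of all genes called under these alternatives are not given here. The cause of these moves was not tested.

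With 1 clone fewer, RNA counts ran from 7 to 12 for R98S, 4 to 16 for Rpl11+/-, 2 to 4 for Rpl22+/-, 4 to 6 for Rpl22-/-, 0 to 1 for Rpl5+/- and 24 to 38 for P131S against H137Y. Footprint counts ran from 0 to 1 for R98S, 0 to 4 for Rpl11+/-, 1 to 4 for Rpl22+/-, 9 to 14 for H137Y, 13 to 26 for P131S, 1 to 4 for P131S against H137Y and 15 to 28 for the Rps15 mean. Ratio counts ran from 1 to 6 for H137Y, 2 to 8 for P131S and 5 to 13 for the Rps15 mean. Only changes near 0 that were not called turned direction. Taf1 footprints in H137Y were 0.012 by DESeq2 and with RLE factors. With 1 clone fewer, Taf1 in H137Y ran from -0.076 to 0.06 in footprints, -0.018 to 0.051 in RNA and -0.064 to 0.017 in the ratio, and in P131S from -0.149 to 0.035 in footprints and -0.029 to 0.176 in the ratio. Med1 ran from -0.065 to 0.153 in P131S footprints and -0.113 to 0.058 in H137Y RNA, and Tbp from -0.087 to 0.016 in P131S RNA and -0.003 to 0.245 in the H137Y ratio. Genes with few footprints, such as Med12l (under 10 CPM), are the least precise.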
